A study of Homo sapiens with 23 samples.

Results

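Glucocorticoid-responsive genes were represented by NR3C1, FKBP5, TSC22D3, SGK1, DUSP1 and PER1, and their probes were found by gene symbol in the platform annotation, with no use of measured levels. The 6 genes themselves were chosen with earlier results of these data known. The array carries 13 probes for these 6 genes, of 48803 probes in all, and 9 of the 13 had a detection p under 0.05 on at least 5 arrays, as had 17689 probes of the whole array. Every one of the 6 genes kept at least 1 probe and was tested among 10954 genes. NR3C1 kept 2 of 3 probes, TSC22D3 3 of 5 and SGK1 1 of 2, while FKBP5, DUSP1 and PER1 have 1 probe each.

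The glucocorticoid receptor is a hormone-activated transcription factor. Bound to cortisol, it leaves a chaperone complex in the cytoplasm, enters the nucleus and binds DNA elements built from inverted copies of a hexamer, and the genes it induces include its own feedback inhibitors, anti-inflammatory proteins and clock genes. Cultured mammary epithelial cells are commonly grown with hydrocortisone, and in the breast the hormone acts with prolactin and insulin in differentiation. NR3C1 encodes the receptor itself. FKBP5 is a co-chaperone that lowers the receptor's affinity for hormone, TSC22D3 (GILZ) is an anti-inflammatory leucine zipper protein, SGK1 is a kinase that regulates ion transport and survival, DUSP1 is a phosphatase that switches off MAP kinases, and PER1 is a repressor of the circadian clock.

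The RNA came from MCF10A, an immortalised, non-tumorigenic line of human mammary epithelial cells, and from a derivative that the labels call MCF10A/ErbB2* and title as ErbB2-engineered (ErbB2* here; ErbB2 is a receptor tyrosine kinase). The groups were ErbB2* cells in 3D culture (6 arrays), ErbB2* cells in 2D culture (6), MCF10A WT cells in 3D culture (5) and MCF10A WT cells in 2D culture (6). ErbB2* is a single derivative line, and the sources used here do not give its construct, the culture media or any corticosteroid in them. Whether the replicates are separate cultures is not stated, so the p-values below reflect differences among these samples that may include technical ones only.

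Values are log2 signals of Illumina bead arrays after background correction and quantile normalisation, and a change is the first-named group minus the other. On 22 arrays the mean scanner signal was 333.6 to 581.6 units and 30.9% to 34.6% of probes were detected. In WT 3D replicate 5 the mean was 150.6 units with 19.1% of probes detected, and its labels conflict: its title says WT 3D and its cell line field names ErbB2*. It was kept in WT 3D, and the calls on the 6 genes and the list counts that change without it are given both ways. Of 12 basal mammary epithelial markers 8 were tested, and all 8, KRT5 and KRT14 among them, were detected on 23 of 23 arrays. Lists for other cell types were mixed. Of the leukocyte genes, PTPRC was detected on 2 arrays and ITGAM on 0, but CD14 and CD68 on 23. Of the endothelial genes, CDH5 and VWF were detected on 0 arrays and PECAM1 on 22. COL3A1 (fibroblasts) was detected on 0 arrays, PDGFRA on 22 and DCN on 23, and ADIPOQ and PLIN1 (adipocytes) were detected on 0 and LEP and PPARG on 23.

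In the RefSeq annotation of GRCh38.p14, all 6 genes lie on the minus strand. NR3C1 spans chr5:143277931-143435512 and DUSP1 chr5:172768096-172771195. FKBP5 spans chr6:35573590-35728583, SGK1 chr6:134169256-134318112, PER1 chr17:8140472-8152404 and TSC22D3 chrX:107713221-107775988. RefSeq promoter windows, each 250 bases before and 50 after a start site, numbered 7 for NR3C1, 2 for FKBP5, 4 for TSC22D3, 3 for SGK1 and 1 each for DUSP1 and PER1. Both strands were searched for the full receptor element (AGAACA, any 3 bases, TGTTCT), a relaxed form of it (G, any base, ACA, any 3 bases, TGT, any base, C), the single hexamer AGAACA (part of the full element), the cAMP response element TGACGTCA and the E-box CACGTG that clock factors bind. None of the 18 windows held the full or the relaxed receptor element, which occur in 0.00285% and 0.39% of the 35116 windows of all genes. The hexamer, found in 14.8% of all windows, matched at the start site of FKBP5 window 2 and at base 5 past the start of SGK1 window 2. FKBP5 window 1 held an E-box 227 bases before its start, a motif found in 7.26% of all windows. The NR3C1 and TSC22D3 windows matched none of the 5 motifs.

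DUSP1 and PER1 are shown because each has a single window and the motifs of their better known inputs, cAMP signalling and the clock, lie in it. The DUSP1 window held a cAMP response element 125 bases before the start, found in 1.85% of all windows, and an E-box 108 bases before it, found in 7.26%. The PER1 window held an E-box 173 bases before its start. Capitals mark these matches in the 250 bases upstream of each start, read 5′ to 3′ on the gene's strand from RefSeq on GRCh38.p14, at chr5:172771196-172771445 for DUSP1 and chr17:8152405-8152654 for PER1, both on the minus strand.
DUSP1: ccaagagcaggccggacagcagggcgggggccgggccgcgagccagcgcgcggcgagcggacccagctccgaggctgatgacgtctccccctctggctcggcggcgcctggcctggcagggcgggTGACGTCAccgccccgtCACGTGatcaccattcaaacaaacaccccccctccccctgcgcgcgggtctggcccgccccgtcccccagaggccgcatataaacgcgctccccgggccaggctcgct
PER1: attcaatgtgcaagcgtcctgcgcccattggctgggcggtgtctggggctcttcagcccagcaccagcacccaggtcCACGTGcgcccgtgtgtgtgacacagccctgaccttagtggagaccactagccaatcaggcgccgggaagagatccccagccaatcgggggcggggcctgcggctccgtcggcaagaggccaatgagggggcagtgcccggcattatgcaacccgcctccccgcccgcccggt

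**Figure D1:**
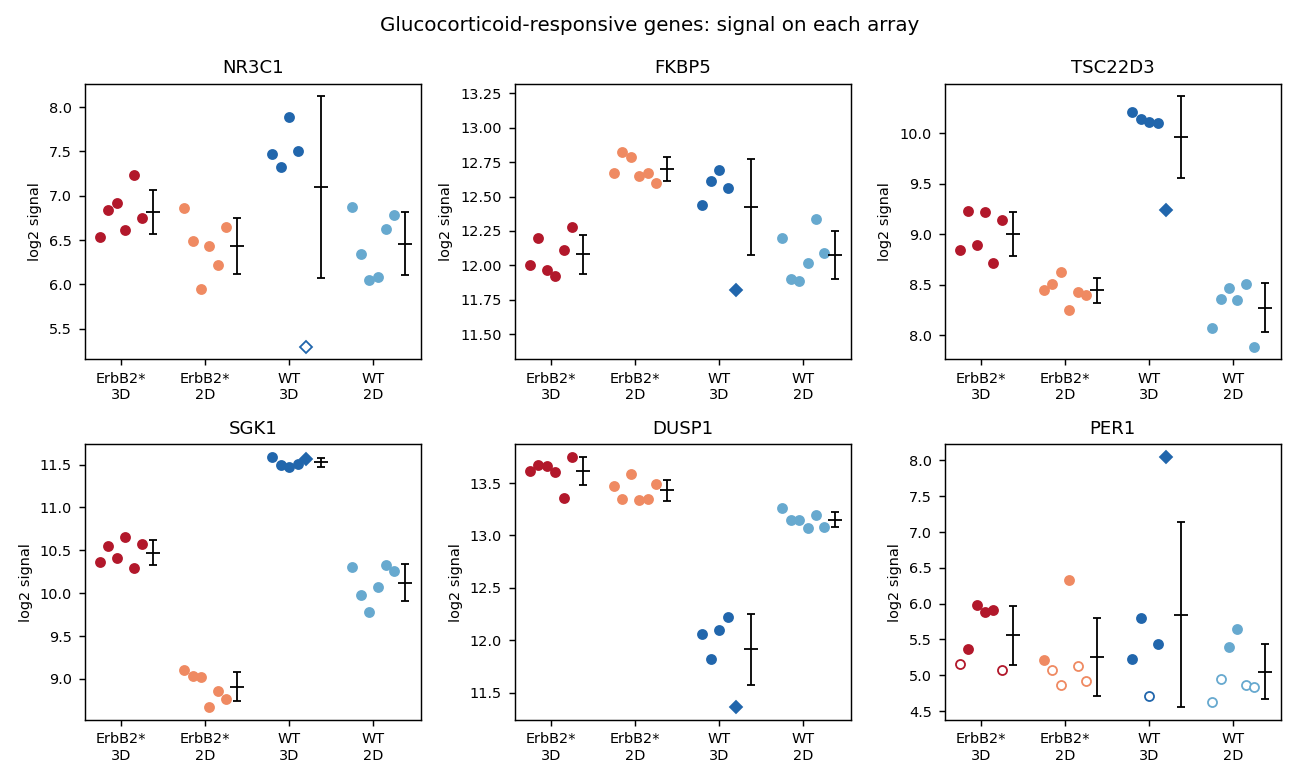
Log2 signal of the probe that stands for each of the 6 genes, for ErbB2* 3D, ErbB2* 2D, WT 3D and WT 2D arrays; each point is an array, the diamond is WT 3D replicate 5, open points are below background, and the bar beside each group is its mean ± SD. SGK1 and TSC22D3 are highest in WT 3D, DUSP1 is lowest there, and FKBP5 is highest in ErbB2* 2D.

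The genes did not move as a block. Going to 3D culture, SGK1 and TSC22D3 rose in both lines. DUSP1 fell in WT cells, and its response differed between the lines. FKBP5 fell in ErbB2* cells and was higher in WT cells, and SGK1 was lower in ErbB2* cells than in WT cells in either culture.

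The receptor gene NR3C1 had log2 signals of 6.54 to 7.24 (median 6.80) in ErbB2* 3D, 5.95 to 6.86 (median 6.46) in ErbB2* 2D, 7.47, 7.33, 7.89, 7.50 and 5.30 in WT 3D, and 6.05 to 6.87 (median 6.49) in WT 2D. The value of 5.30 belongs to WT 3D replicate 5, where the probe was below background; it was detected on the other 22 arrays. Without that array every WT 3D value lay above every value of the other 3 groups. In the main fit of all 23 arrays no comparison of NR3C1 passed, and in WT cells 3D against 2D gave a log2 change of 0.64 ± 0.31 (SE; limma adjusted p = 0.128). On all 23 arrays 3 other settings called that comparison. They were the deposited log2 values (0.47, adjusted p = 2.68e-06), array weights (1.06, 4.49e-05) and the mean over probes (0.91, 2.82e-05). The weight of WT 3D replicate 5 was 0.029. The same settings called the lines in 3D, at -0.34, -0.75 and -0.62 (adjusted p = 1.92e-04, 0.00126 and 0.00201). The deposited value of WT 3D replicate 5 was 8.36, within the 8.17 to 8.46 of the other WT 3D arrays, though its scanner signal was below background. The mean over probes takes in the 9.13 that this array read for the other NR3C1 probe, from a scanner signal of 138 units. These 2 settings therefore do not carry the low reading of that array. Without WT 3D replicate 5 NR3C1 was higher in WT 3D than in WT 2D by 1.10 (adjusted p = 6.78e-05) and lower in ErbB2* 3D than in WT 3D by 0.73 (log2 change -0.73, adjusted p = 0.00446). In 2D culture the change between the lines was -0.026 ± 0.30 (adjusted p = 0.978), and in ErbB2* cells that between cultures was 0.39 ± 0.30 (adjusted p = 0.415). The interaction, the culture response in ErbB2* cells minus that in WT cells, was -0.25 ± 0.43 (adjusted p = 0.734), and without WT 3D replicate 5 it was called at -0.71 (adjusted p = 0.0459).

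The other NR3C1 probe lay close to background. It was detected on 8 arrays, and its log2 signals were 4.71 to 5.39 in ErbB2* 3D, 4.61 to 5.22 in ErbB2* 2D, 4.75 to 5.63 on the 4 other WT 3D arrays and 4.63 to 5.22 in WT 2D. WT 3D replicate 5 read 9.13 for this probe, from a scanner signal of 138 units inside the range of the whole group, 101 to 143. Tested by itself on 22 arrays, the probe changed by 0.41 between 3D and 2D in WT cells (adjusted p = 0.083), so the rise seen with the brighter probe was not called with this one.

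FKBP5, whose product restrains the receptor, fell in 3D in ErbB2* cells and was higher in 3D in WT cells, by a call that several settings ended. Its log2 signals were 11.92 to 12.28 (median 12.06) in ErbB2* 3D and 12.60 to 12.82 (median 12.67) in ErbB2* 2D. In WT 3D they were 12.44, 12.61, 12.69, 12.56 and, in replicate 5, 11.82, and in WT 2D they were 11.89 to 12.34 (median 12.06). ErbB2* 2D lay wholly above ErbB2* 3D and above WT 2D, and the 4 WT 3D arrays other than replicate 5 lay above every ErbB2* 3D and WT 2D array. FKBP5 fell in ErbB2* cells in 3D by 0.62 on the log2 scale (-0.62 ± 0.12, 1.54-fold lower; adjusted p = 5.93e-04). In WT cells in 3D it was higher by 0.35 ± 0.13 (adjusted p = 0.0435), or by 0.50 without replicate 5 (adjusted p = 3.66e-04). This call in WT cells had the highest adjusted p of the calls on these 6 genes, and median scaling of all 23 arrays turned it to -0.059 (adjusted p = 0.936), while median scaling of 22 arrays gave 0.59 (adjusted p = 0.00495). The call was also lost with the replicate number as a block (0.36, adjusted p = 0.0748), with only the groups compared (adjusted p = 0.177) and without any 1 of 12 arrays. Median scaling of all arrays ended the call in ErbB2* cells as well (-0.72, adjusted p = 0.297).

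Between the lines, FKBP5 rose in ErbB2* cells in 2D by 0.63 ± 0.12 (1.54-fold; adjusted p = 8.34e-04). In 3D it was at -0.35 ± 0.13 (adjusted p = 0.0573), and it fell without WT 3D replicate 5 (-0.49, adjusted p = 4.79e-04). The interaction was -0.97 ± 0.18 (adjusted p = 4.80e-04), or -1.12 without that array (adjusted p = 1.00e-06). Median scaling of all 23 arrays ended the calls in 2D (0.89, adjusted p = 0.227) and for the interaction (-0.67, adjusted p = 0.731), and in 3D gave 0.23 (adjusted p = 0.703).

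TSC22D3 was higher in 3D in both lines, and more so in WT cells. The probe that stands for it had log2 signals of 8.72 to 9.23 (median 9.02) in ErbB2* 3D, 8.25 to 8.63 (median 8.44) in ErbB2* 2D, 10.21, 10.14, 10.11, 10.10 and 9.24 in WT 3D, and 7.89 to 8.51 (median 8.35) in WT 2D. The value of 9.24 is replicate 5. Each 3D group lay above its 2D group on every array, and every WT 3D array lay above the highest ErbB2* 3D array, at 9.23. TSC22D3 rose in 3D by 0.56 ± 0.15 in ErbB2* cells (1.48-fold; adjusted p = 0.00787) and by 1.68 ± 0.16 in WT cells (3.21-fold; adjusted p = 2.32e-08). The interaction was -1.12 ± 0.22 (adjusted p = 8.84e-04). In 3D it fell in ErbB2* cells against WT cells by 0.95 (-0.95 ± 0.16, 1.93-fold lower; adjusted p = 8.69e-05). In 2D the lines overlapped (0.17 ± 0.15, adjusted p = 0.573). Median scaling of all 23 arrays ended the 4 calls, at -0.35 for the lines in 3D (adjusted p = 0.591), 0.40 for ErbB2* cultures (0.707), 1.15 for WT cultures (0.0965) and -0.75 for the interaction (0.737). With 22 arrays, median scaling ended the call for ErbB2* cultures (0.40, adjusted p = 0.0579).

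The other TSC22D3 probes gave the same signs for the culture response and for the line comparison in 3D. The probe designed on another transcript (NM_198057 in the platform annotation) had log2 signals of 8.39 to 9.28 in ErbB2* 3D, 8.07 to 8.61 in ErbB2* 2D, 9.97 to 11.08 in WT 3D and 7.89 to 8.19 in WT 2D. Its change in 3D against 2D was 0.46 in ErbB2* cells (adjusted p = 0.0717) and 2.15 in WT cells (adjusted p = 5.88e-09), with an interaction of -1.69 (adjusted p = 5.58e-05). The dimmest of the 3 probes was detected on 16 arrays and gave changes of 0.48 in ErbB2* cells (adjusted p = 0.39) and 1.31 in WT cells (adjusted p = 0.00816). In WT 3D replicate 5 the 3 probes moved apart: relative to the range of the other 4 WT 3D arrays, the probe on NM_198057 read higher, at 11.08 against 9.97 to 10.16, and the others read lower.

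SGK1 separated the 4 groups most widely, with group means spanning 2.61 log2 units. Its log2 signals were 10.29 to 10.66 (median 10.48) in ErbB2* 3D, 8.67 to 9.10 (median 8.94) in ErbB2* 2D, 11.59, 11.49, 11.47, 11.51 and 11.57 in WT 3D, and 9.78 to 10.33 (median 10.16) in WT 2D. From the highest, the order was WT 3D, ErbB2* 3D, WT 2D and ErbB2* 2D, and the arrays of neighbouring groups overlapped only between ErbB2* 3D and WT 2D. WT 3D replicate 5, at 11.57, lay among the other WT 3D arrays.

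SGK1 rose in 3D by 1.56 ± 0.10 in ErbB2* cells (2.95-fold; adjusted p = 7.91e-11) and by 1.40 ± 0.11 in WT cells (2.64-fold; adjusted p = 9.65e-10). The interaction of 0.16 ± 0.15 was not called (adjusted p = 0.513). Against WT cells it fell in ErbB2* cells by 1.05 in 3D (-1.05 ± 0.11, 2.07-fold lower; adjusted p = 1.06e-07) and by 1.21 in 2D (-1.21 ± 0.10, 2.32-fold lower; adjusted p = 6.47e-09). Median scaling of all 23 arrays ended both of these calls, at -0.50 in 3D (adjusted p = 0.312) and -0.95 in 2D (adjusted p = 0.0952), and that for WT cultures, at 0.97 (adjusted p = 0.0624). Among the WT 2D arrays, replicates 1, 5 and 6 read 10.31, 10.33 and 10.26 and replicates 2, 3 and 4 read 9.98, 9.78 and 10.07, and the same 3 arrays read higher for NR3C1 (6.87, 6.63 and 6.78, against 6.34, 6.05 and 6.08). They also read higher for FKBP5 (12.20, 12.34 and 12.09, against 11.90, 11.89 and 12.02), whereas TSC22D3 and DUSP1 did not split this way. PER1, near background, split the same arrays in the opposite direction (4.62, 4.87 and 4.83, against 4.95, 5.39 and 5.64). The labels name no batch that separates these arrays.

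DUSP1 was the gene that was lowest in WT 3D. Its log2 signals were 13.36 to 13.75 (median 13.64) in ErbB2* 3D, 13.34 to 13.59 (median 13.41) in ErbB2* 2D, 12.06, 11.82, 12.10, 12.22 and 11.36 in WT 3D, and 13.07 to 13.26 (median 13.15) in WT 2D. Every WT 3D array lay below every other array, with or without replicate 5 at 11.36. DUSP1 rose in ErbB2* cells against WT cells in 3D by 1.70 ± 0.12 (3.24-fold; adjusted p = 1.51e-10), or by 1.56 without replicate 5. In WT cells it fell in 3D by 1.24 (-1.24 ± 0.12, 2.36-fold lower; adjusted p = 3.47e-08), and in ErbB2* cells the change was 0.18 ± 0.11 (adjusted p = 0.294). The interaction was 1.42 ± 0.16 (adjusted p = 1.33e-06), and 1.73 under median scaling of all arrays, which ended the call (adjusted p = 0.0935).

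In 2D culture each ErbB2* array lay above each WT array for DUSP1, but the change of 0.28 ± 0.11 was not called in the main fit of all arrays (adjusted p = 0.123). On all arrays it was called with the deposited log2 values (0.31, adjusted p = 0.0309) and array weights (0.27, 0.0227). Fitting only the groups compared also called it (0.28, adjusted p = 0.0235). It passed without WT 3D replicate 5, at the same size (0.28, adjusted p = 0.0153): that array belongs to neither group.

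PER1 was near background. It was detected on 4 of 6 arrays in ErbB2* 3D, 2 of 6 in ErbB2* 2D, 4 of 5 in WT 3D and 2 of 6 in WT 2D. Its log2 signals were 5.07 to 5.98 (median 5.62) in ErbB2* 3D, 4.87 to 6.33 (median 5.10) in ErbB2* 2D, 5.23, 5.80, 4.71, 5.44 and 8.05 in WT 3D, and 4.62 to 5.64 (median 4.91) in WT 2D. All groups overlapped. The 8.05 came from WT 3D replicate 5, where the scanner signal of 115 units lay within the 97.0 to 149 of that group and the authors' deposited log2 value was 7.59, beside 7.39 to 7.64 on the other 4. No comparison of PER1 was called, and the largest change, 0.80 ± 0.41 for 3D against 2D in WT cells (adjusted p = 0.144), was 0.25 without that array (adjusted p = 0.515).

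**Figure D2:**
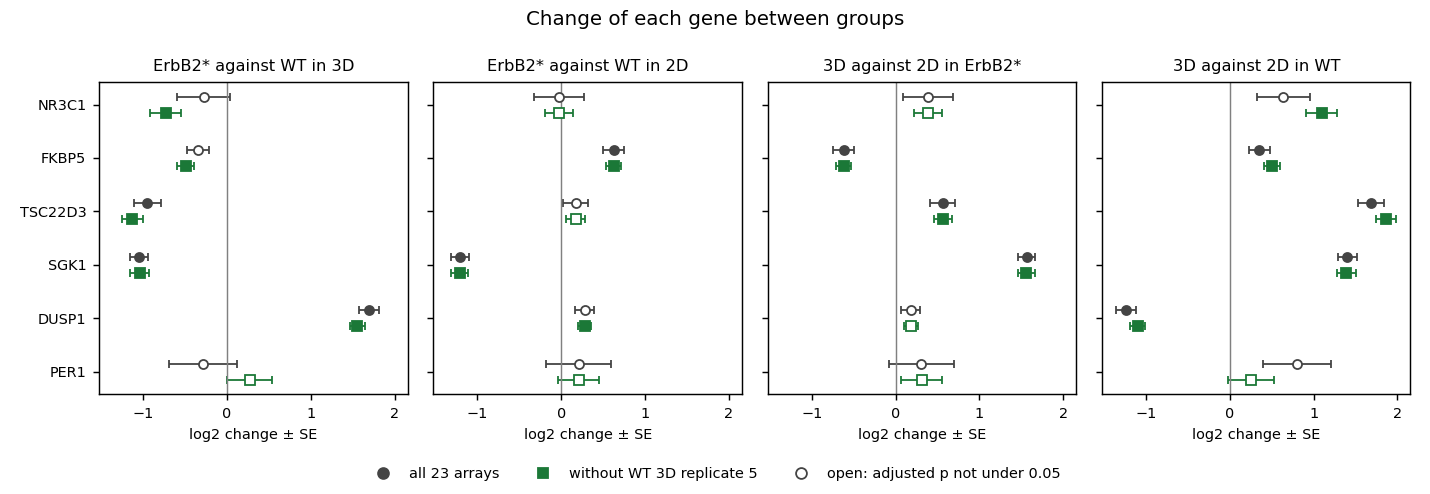
Log2 change ± SE of each gene in 4 comparisons (ErbB2* against WT in 3D and in 2D, 3D against 2D in ErbB2* and in WT cells), with all 23 arrays (circles) and without WT 3D replicate 5 (squares); filled marks have a limma adjusted p under 0.05. SGK1 is negative in both line comparisons and positive in both culture comparisons, while leaving out replicate 5 turns NR3C1 from open to filled in 2 comparisons.

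Counted together, 1 of the 6 genes rose (DUSP1) and 2 fell (TSC22D3 and SGK1) in ErbB2* cells against WT cells in 3D, where 11.6% of all genes rose and 10.7% fell. In 2D 1 rose (FKBP5) and 1 fell (SGK1), beside 7.78% and 5.33% of all genes. For 3D against 2D, 2 rose (TSC22D3 and SGK1) and 1 fell (FKBP5) in ErbB2* cells, beside 10.3% and 12.1% of all genes. In WT cells 3 rose (FKBP5, TSC22D3 and SGK1) and 1 fell (DUSP1), beside 14.3% and 15.3%. The interaction was called for DUSP1, upward as in 6.73% of all genes, and for FKBP5 and TSC22D3, downward as in 8.33%. The median change over the 6 was -0.32 for the lines in 3D and 0.72 for the cultures in WT cells, against 0.038 and -0.058 over all genes tested.

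Without WT 3D replicate 5, 1 rose and 4 fell between the lines in 3D (13.7% and 14% of all genes), and 2 rose and 1 fell in 2D (12.8% and 10.5%). For the cultures, 2 rose and 1 fell in ErbB2* cells (17.1% and 19.2%), and 4 rose and 1 fell in WT cells (17.1% and 16.6%). The interaction was then called upward for 1 and, with NR3C1 added, downward for 3 (9.75% and 11.7%).

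Likeness of profile was measured for the 3 genes whose group means span at least 1 log2 unit, as the root-mean-square difference of centred log2 profiles over 23 arrays. The genes nearest to SGK1 were RNASE7, a secreted antimicrobial ribonuclease (0.28), XDH, xanthine dehydrogenase (0.29), and the adhesion receptor gene ADGRG1 (0.30), beside an SD of SGK1 itself of 0.93. Nearest to TSC22D3, with an SD of 0.68, were the podosome scaffold gene SH3PXD2A (0.27), the protease gene CTSC (0.29) and HADHB, of mitochondrial fatty acid oxidation (0.30). Nearest to DUSP1, with an SD of 0.66, were TMEM158 (0.28), the glycine receptor gene GLRB (0.28) and the RNA-binding protein gene CPEB2 (0.29). Without WT 3D replicate 5 these 9 genes kept ranks of 1 to 13. Within the set, TSC22D3 stood at rank 132 among the genes nearest to SGK1 (0.59), and SGK1 stood at rank 10811 from DUSP1 (1.45).

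Other genes known to be induced by glucocorticoids were counted from a list of 36, of which 32 were tested. Several of them, such as TNFAIP3, ZFP36 and RHOB, also respond to other inputs. This list and those in the paragraphs below were chosen with earlier results of these data known. Their counts beside the shares of all genes are therefore descriptive and not a test of the lists. In ErbB2* cells 13 rose and 6 fell in 3D (median log2 change 0.16), where 10.3% of all genes rose and 12.1% fell, and in WT cells 18 rose and 4 fell (median 1.00), beside 14.3% and 15.3% of all genes. PDK4, a kinase that restrains glucose oxidation, rose by 2.63 ± 0.22 in ErbB2* cells and by 4.46 ± 0.23 in WT cells. The monoamine oxidase gene MAOA rose by 3.23 ± 0.14 in WT cells (adjusted p = 4.05e-14) and was at -0.15 ± 0.13 in ErbB2* cells (adjusted p = 0.493), with an interaction of -3.38 ± 0.19 (adjusted p = 1.51e-11). The transcription factor gene KLF9 had log2 signals of 9.99 to 10.44 in ErbB2* 3D, 9.98 to 10.24 in ErbB2* 2D, 10.39 to 10.61 in WT 3D and 8.10 to 8.82 in WT 2D, so that WT 2D lay apart from the 3 other groups. CEBPD, another transcription factor gene, was lower in 3D in ErbB2* cells, at 10.21 to 10.63 against 10.92 to 11.05 in 2D, and higher in 3D in WT cells, at 11.45 to 11.61 against 9.93 to 10.66 in 2D (interaction -1.81 ± 0.16, adjusted p = 1.48e-08; -1.50 and 0.0775 under median scaling of all arrays). The signs of its 2 culture responses were those of FKBP5.

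For the interaction, 6 of the 32 were higher and 14 were lower (median -0.37; all genes 0.019), beside 6.73% and 8.33% of all genes, and under median scaling of all arrays 4 were higher and 2 lower. Among the 6 were ZFP36 (2.04), RHOB (2.00) and TNFAIP3 (1.39), as was DUSP1 (1.42) among the 6 main genes. Between the lines, 8 rose and 12 fell in ErbB2* cells in 3D (median -0.13; 11.6% and 10.7% of all genes) and 14 rose and 3 fell in 2D (median 0.50; 7.78% and 5.33%). The median in 3D changed sign under median scaling of 23 arrays (0.37, with 8 rising and 2 falling) and was -0.08 under median scaling of 22 arrays. Without WT 3D replicate 5, 11 rose and 12 fell between the lines in 3D (median -0.04) and 17 rose and 3 fell in 2D, 14 rose and 7 fell for the cultures in ErbB2* cells and 19 rose and 4 fell in WT cells, and for the interaction 8 were higher and 15 lower.

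**Figure D3:**
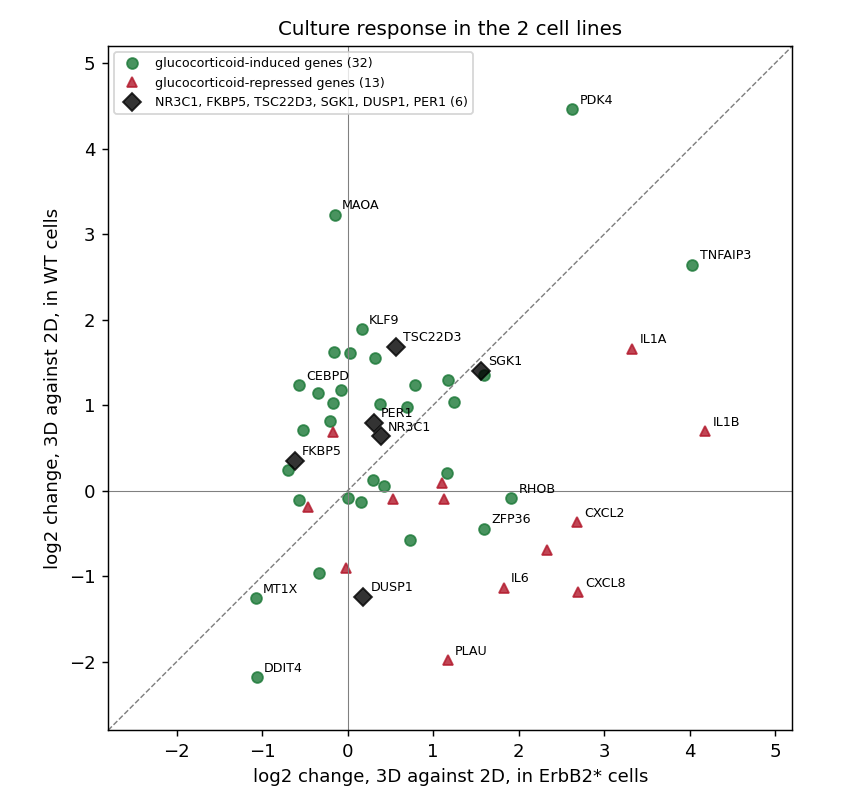
Log2 change of 3D against 2D in ErbB2* cells (horizontal) and in WT cells (vertical) for the 6 genes (diamonds), 32 glucocorticoid-induced genes (circles) and 13 glucocorticoid-repressed genes (triangles); the dashed line marks equal change. SGK1 lies near the line, TSC22D3 and FKBP5 lie above it, and DUSP1 lies below it, as do most of the repressed genes.

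Genes known to be repressed by glucocorticoids are here mostly cytokine and chemokine genes that NF-kB also drives. Of 18 listed genes 13 were tested, and for the interaction 10 were higher and none lower (6.73% and 8.33% of all genes). In ErbB2* cells against WT cells in 3D 11 rose and none fell (median 1.34; 11.6% and 10.7% of all genes), and in 2D 3 rose and 1 fell (median 0.10; 7.78% and 5.33%). In 3D against 2D, 10 rose and 1 fell in ErbB2* cells (median 1.17; 10.3% and 12.1%), and 2 rose and 4 fell in WT cells (median -0.19; 14.3% and 15.3%). Leaving out WT 3D replicate 5 changed 2 of these 4 culture and line counts, to 4 that rose and 3 that fell between the lines in 2D and to 5 that fell in WT cells. CXCL8, the neutrophil chemokine interleukin-8, had log2 signals of 12.41 to 12.99 in ErbB2* 3D, 9.63 to 10.37 in ErbB2* 2D, 8.01 to 10.35 in WT 3D and 9.56 to 10.04 in WT 2D, and the WT 3D array at 10.35 is replicate 5. The interaction of CXCL8 was 3.88 ± 0.38 (adjusted p = 1.02e-07), or 4.29 without that array. IL6, detected on none of the WT 3D arrays, rose in ErbB2* 3D at least 17.6-fold in the main setting (fitted means 9.70 in ErbB2* 3D and 4.93 in WT 3D, adjusted p = 3.91e-14). All 35 alternatives called this rise, with log2 changes of 2.37 to 5.06, so the bound depends on the processing. The protease gene PLAU had an interaction of 3.15 ± 0.13 (adjusted p = 8.39e-14). CCL2, 1 of the 3 genes that rose between the lines in 2D, was detected on 5 ErbB2* 3D and 6 ErbB2* 2D arrays. In WT 3D and in WT 2D it was detected on 0 arrays. CCL2 passed the detection filter only through ErbB2* arrays, so the filter favoured its rise in ErbB2* cells in either culture.

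HSD11B1 is the enzyme that regenerates cortisol from cortisone inside the cell, with cofactor made through H6PD. Whether cortisone was present in these cultures is not given, and hormone supply was not measured. Of 11 listed genes for other steroid receptors and corticoid metabolism 5 were tested, and HSD11B1 alone among these 5 was called for the lines in 3D, where 1 more fell without WT 3D replicate 5. The log2 signals of HSD11B1 were 8.01 to 8.43 in ErbB2* 3D, 6.89 to 7.61 in ErbB2* 2D, 4.67 to 5.40 in WT 3D and 4.86 to 5.72 in WT 2D, and it was detected on every ErbB2* array, on 1 of 5 WT 3D arrays and on 4 of 6 WT 2D arrays. HSD11B1 rose in ErbB2* cells by 3.28 ± 0.16 in 3D (adjusted p = 3.82e-13) and by 1.77 ± 0.15 in 2D (adjusted p = 8.39e-09). Both calls held under all 35 alternatives, with changes of 1.21 to 3.40 in 3D and 0.53 to 1.95 in 2D. A probe of the same gene gave 3.05 and 1.55, and a dimmer one gave 0.70 in 3D (adjusted p = 7.68e-05) and 0.19 in 2D (adjusted p = 0.351). H6PD rose in ErbB2* cells in 2D by 0.96 ± 0.24 (adjusted p = 0.00847), and in ErbB2* cells it fell in 3D by 1.01 (-1.01 ± 0.24, adjusted p = 0.00341). Both H6PD calls held under the 34 alternatives that tested it. Its changes ran from 0.26 to 1.11 for the lines in 2D and from -1.17 to -0.28 for the ErbB2* cultures, so their size depends on the processing.

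**Figure D4:**
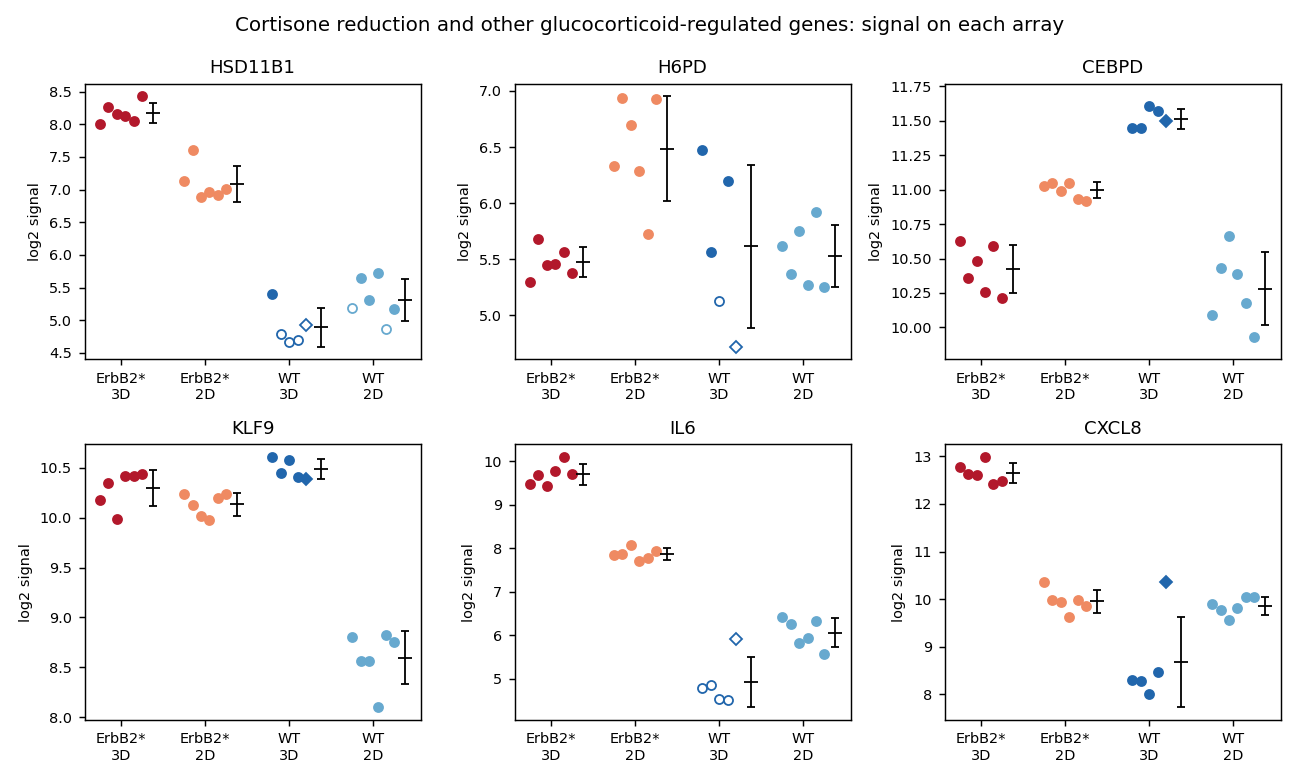
Log2 signal on each array of HSD11B1, H6PD, CEBPD, KLF9, IL6 and CXCL8, with groups and marks as in the plot of the 6 genes by array. HSD11B1 was detected on all 12 ErbB2* arrays, and IL6 was below background on all 5 WT 3D arrays.

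Around DUSP1, 18 of 19 listed MAP kinase phosphatases and immediate early genes were tested. In ErbB2* cells against WT cells in 3D 9 rose and 2 fell (median 0.77; 11.6% and 10.7% of all genes), and in 2D none rose and 3 fell (median -0.19; 7.78% and 5.33%). For the interaction 7 were higher and none lower (median 0.92; 6.73% and 8.33%). Without WT 3D replicate 5, 9 rose and 4 fell between the lines in 3D (median 0.48), 3 rose and 5 fell in 2D, and for the interaction 7 were higher and none lower (median 0.54). IER3, an early response gene, rose by 3.43 ± 0.11 between the lines in 3D and FOS, a subunit of AP-1, by 2.15 ± 0.28. FOSB, another AP-1 gene, rose in 3D in both lines, by 4.91 ± 0.25 in ErbB2* cells and 4.95 ± 0.26 in WT cells, unlike DUSP1.

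Around FKBP5 and TSC22D3, 13 listed relatives were tested. In ErbB2* cells against WT cells 5 rose and none fell in 3D, beside 11.6% and 10.7% of all genes, and none rose and 1 fell in 2D, beside 7.78% and 5.33% (4 and none in 3D, none and 2 in 2D, without WT 3D replicate 5). TSC22D1, the founding member of the TSC22 family, had an interaction of 1.45 ± 0.14 (adjusted p = 7.29e-08), the opposite sign to TSC22D3, although 3 other TSC22D1 probes gave 0.90, 1.14 and 1.74 with adjusted p-values of 0.0249, 0.0889 and 0.0305. Of 21 listed receptor chaperones and cofactors 17 were tested. In ErbB2* cells against WT cells PTGES3, which encodes an HSP90 co-chaperone, was called in 3D (0.38 ± 0.12, adjusted p = 0.0307) and none fell, and limma called none in 2D, where 1 was higher and 1 lower at an unadjusted p under 0.05. The PTGES3 call held in 28 of 35 settings and was lost under median scaling (adjusted p = 0.0518), with only the groups compared, with the replicate block and without any 1 of 4 arrays. Without WT 3D replicate 5, 5 of the 17 rose and 2 fell in 3D, and 1 rose and 1 fell in 2D.

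Around SGK1, 7 of 12 listed SGK and PI3K pathway genes were tested, and none rose and 1 fell between the lines in 3D, beside 11.6% and 10.7% of all genes (3 fell without WT 3D replicate 5). The gene called with all arrays was NDRG1, whose product SGK1 phosphorylates, at -0.87 ± 0.18 in 3D (adjusted p = 7.66e-04), a call that median scaling of all arrays ended (-0.32, adjusted p = 0.401). In 2D NDRG1 rose in ErbB2* cells by 0.95 ± 0.17 (adjusted p = 2.52e-04), while SGK1 fell there.

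Around PER1, 13 of 17 listed clock genes were tested, and 2 rose and 2 fell for 3D against 2D in ErbB2* cells and 1 rose and 2 fell in WT cells. The shares of all genes were 10.3% and 12.1% in ErbB2* cells and 14.3% and 15.3% in WT cells. BMAL1, an activator of PER1, rose in 3D by 1.35 ± 0.12 in ErbB2* cells and by 0.98 ± 0.12 in WT cells, calls that median scaling of all arrays ended, and another BMAL1 probe gave 0.40 and 0.23 with adjusted p-values of 0.14 and 0.389. CRY1, a repressor that acts with PER1, fell by 0.74 in ErbB2* cells (-0.74 ± 0.17) and by 1.07 in WT cells (-1.07 ± 0.17). Another CRY1 probe gave -0.40 in ErbB2* cells, which was not called (adjusted p = 0.442), and -1.45 in WT cells (adjusted p = 0.00183).

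Markers of several cell types moved with the line. The summed signal of the basal epithelial markers was 6950 to 9360 in ErbB2* 3D, 5750 to 6970 in ErbB2* 2D, 14500 to 17200 in WT 3D and 13500 to 18100 in WT 2D, and all 8 tested markers fell in ErbB2* cells in 2D and 7 of 8 in 3D (8 without WT 3D replicate 5). The fibroblast list, whose defining collagen COL3A1 was at 0 arrays, summed to 9210 to 10700 in ErbB2* 3D, 5470 to 6020 in ErbB2* 2D, 2620 to 2970 in WT 3D and 3300 to 3530 in WT 2D. Its genes did not all move that way. Of the 4 tested, 1 rose and none fell in ErbB2* cells in 2D (median 0.05; 7.78% and 5.33% of all genes). In 3D 2 rose and 1 fell (median 0.53, beside 11.6% and 10.7% of all genes). LUM, 1 of the 4, was detected on 6 ErbB2* 3D, 0 ErbB2* 2D, 1 WT 3D and 0 WT 2D arrays. LUM passed the detection filter only through ErbB2* 3D, so the filter favoured a rise there. The 4 tested of 6 adipocyte markers summed to 2980 to 3540, 1460 to 1860, 313 to 615 and 413 to 537 in ErbB2* 3D, ErbB2* 2D, WT 3D and WT 2D, while ADIPOQ and PLIN1 were at 0 arrays. In both cultures 3 of the 4 (FABP4, CIDEC and PPARG) rose in ErbB2* cells, and in 3D all 4 rose without WT 3D replicate 5. By the same order of groups FABP4 was detected on 6, 5, 1 and 0 arrays and CIDEC on 6, 6, 2 and 0. Both passed the detection filter only through ErbB2* arrays, so the filter favoured their rise in ErbB2* cells. Against WT 2D only a bound applies to both. The 3 tested of 8 leukocyte markers summed to 2000 to 2180, 2190 to 2860, 1350 to 2630 and 855 to 1140 in the same order, and the 2 tested of 5 endothelial markers to between 64.5 and 202 in every group. Against WT cells, 2 leukocyte markers rose in ErbB2* cells in 2D and 1 in 3D, and 1 endothelial marker rose in each culture. None of either list fell. The part of these marker lists in the changes of SGK1, TSC22D3, FKBP5 and DUSP1 was not tested. Fewer cells of a type and less RNA per cell cannot be told apart in these bulk samples.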

How the data were processed

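Per the file headers, the authors deposited bead intensities averaged per probe, linear and not normalised between arrays, each with a detection p-value against the negative controls. Normalised values that the authors also deposited were read as log2 from their slope against the scanner signals, and the sources used here do not give the method. In WT 3D replicate 5 that column had a rank correlation of 0.503 with its own scanner column, so it served only as an alternative.

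The analysis used neqc of limma 3.58.1 (R 4.3.3): normexp background correction informed by detection p-values, offset 16, quantile normalisation and log2. Probes were kept at a detection p under 0.05 on at least 5 arrays. Each gene was represented by its brightest passing probe; its other probes were tested by themselves. Of 48803 probes 28098 had 1 gene symbol, 13 several and 20692 none, and 28059 matched a current gene by Entrez ID.

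Groups came from the sample titles. One limma fit of the 4 group means to 23 arrays (19 residual degrees of freedom) gave 5 two-sided comparisons. Benjamini-Hochberg adjustment ran across 10954 genes with a threshold of 0.05, and every adjusted p is limma's. On simulated data for ErbB2* against WT in 2D (10954 genes, 200 of them changed), 31.3%, 83.6% and 100% of genes changed by 0.5, 1 and 2 log2 units were recovered, with 11 false calls. Precision is limited by the number of arrays. A probe below background on every array of a group has only a bound there: the brighter group's mean over a dim mean in which each array's value is at least its lowest detected signal.

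The 6 genes and all lists were chosen with earlier results of these data known. From each list, up to 3 of the highest and 3 of the lowest called changes per comparison could be named, and the 3 genes nearest in profile to each of the 6 whose group means span at least 1 log2 unit. The alternatives were other background corrections and scalings, the deposited log2 values, no and stricter detection filters (0.01 on 11 arrays), probe means, each probe by itself, only the groups compared, array weights, the replicate number as a block, and leaving out each array. Median scaling of 22 arrays and list counts without WT 3D replicate 5 were added after seeing the data. No per-sample column was left unused.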

Additional observations from a re-analysis of the deposited data

Results flagged for a closer look

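The culture response of 3 genes differed between the lines by the interaction test of limma. In ErbB2* cells minus WT cells it was -0.97 for FKBP5, -1.12 for TSC22D3 and 1.42 for DUSP1, on the log2 scale.

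Single arrays lay far from their group in 4 of the 24 sets of a gene and a group that were checked, and chance sets apart about 1 in 20 such sets. In WT 3D replicate 5, NR3C1 read 5.30 beside 7.33 on the nearest array, and TSC22D3 read 9.24 beside 10.10. This is the array with the low signal and the conflicting labels. DUSP1 read 13.36 in ErbB2* 3D replicate 5, with the nearest array at 13.61. PER1 read 6.33 in ErbB2* 2D replicate 4, with the nearest array at 5.21.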

How the results depend on the processing

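Over the 5 comparisons and 35 alternatives, 965 values of the 6 genes kept their direction and their side of the threshold, 28 lost the call, 27 gained it and 19 changed sign. One of the 19 had been called, FKBP5 for 3D against 2D in WT cells, at -0.059 under median scaling. The others were called neither there nor in the main setting. For the lines in 2D NR3C1 turned to 0.14 under both median scalings and 0.061 with the mean over probes, and ran from -0.11 to 0.071 as single arrays were left out, and PER1 ran from -0.0077 to 0.33. For the lines in 3D FKBP5 turned to 0.23 under median scaling, and PER1 to 0.18 there, 0.25 with 22 arrays, 0.045 with the deposited log2 values and 0.28 with array weights, with -0.57 to 0.27 as single arrays were left out. For the interaction PER1 turned to 0.097 with array weights and ran from -0.78 to 0.059, and SGK1 turned to -0.058 under median scaling of 22 arrays. The FKBP5 call in WT cells was also lost without a detection filter (adjusted p = 0.0576), with each probe tested by itself, with only the groups compared (0.177) and without any 1 of 12 arrays. Median scaling of all 23 arrays shifted the median of all genes by 0.203 and 0.399 for the lines in 2D and 3D and called 0 of the 6 in 2D, 1 in 3D, 1 for WT cultures, 1 for ErbB2* cultures and 0 for the interaction (634, 1282, 1267, 902 and 330 of all genes). It keeps the low signal of WT 3D replicate 5; without that array, median scaling called 3, 4, 5, 2 and 4 of the 6, and 3173 of all genes for the lines in 2D, against 1436 with the main setting. For the lines in 3D, array weights, the deposited log2 values and the fit without WT 3D replicate 5 each called 5 of the 6.

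Leaving out 1 array at a time, 2 to 3 of the 6 were called for the lines in 2D, 3 to 5 in 3D, 3 to 5 for WT cultures, 3 to 3 for ErbB2* cultures and 3 to 4 for the interaction. Calls over all genes ran from 1214 to 2542, 2076 to 3036, 2773 to 3690, 2177 to 3970 and 1386 to 2354; the highest of each is the fit without WT 3D replicate 5. Other large moves in these counts were, for the lines in 2D, 2736 with the deposited log2 values, 2203 with only the groups compared and 2373 with array weights; for the lines in 3D and for WT cultures, 1545 and 1797 with only the groups compared; for ErbB2* cultures, 4088, 3987 and 4178; and for the interaction, 2752 with the deposited log2 values and 2570 with array weights. The cause was not tested.

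Replicate numbers did not pair the samples: 5 of 22 same-numbered pairs had correlated deviations over 0.1 (range -0.13 to 0.18), and 2 matched best with their own number. With the number as a block, FKBP5 in WT cultures changed by 0.36 (adjusted p = 0.0748) and lost its call; the counts of the 6 were then 2, 3, 3, 3 and 3, and those of all genes 1318, 2221, 2957, 2309 and 1444. PER1 and the dimmer NR3C1 probe lie too near background for a change to be measured well.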
